A study of Homo sapiens with 12 samples.

Results

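The effect of the GLI1 label was compared between PANC-1 and SW1990, as the change in PANC-1 (arrays labelled GLI1 minus arrays labelled control) minus the same change in SW1990. All 12 arrays of the series and all 22411 genes with a single symbol entered the comparison, which was repeated on 11 arrays without S8, a PANC-1 control array that stood apart from S10 and S11. PANC-1 comes from a ductal carcinoma of the pancreatic head and SW1990 from a splenic metastasis of a pancreatic adenocarcinoma, and both are established human cell lines. The groups held 3 arrays each, labelled PANC-1 with a GLI1 plasmid (LIP, LIP-1 and LIP-2), PANC-1 with an empty plasmid (S10, S11 and S8), SW1990 with the GLI1 plasmid (LIP, LIP-1 and LIP-2) and SW1990 with the empty plasmid (a, b and c), each given with a lipid reagent per the labels. No source explains what the array names stand for. The sources used here do not give the time after transfection. Nothing says whether arrays of 1 group were separate cultures, so the p-values cover only the spread between these arrays, and this spread may be technical.

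A positive difference means that a gene's change was higher, or less of a fall, in PANC-1 than in SW1990. The transfected gene itself ran against the labels. GLI1, the transcription factor that ends the Hedgehog pathway, had normalized log2 values of 7.76, 8.0 and 8.04 in PANC-1 arrays labelled GLI1 and 11.50, 11.54 and 11.46 in PANC-1 arrays labelled control. In SW1990 it had 7.0, 6.90 and 6.77 in arrays labelled GLI1 and 11.82, 11.84 and 11.76 in arrays labelled control. GLI1 was therefore lower in all arrays labelled GLI1, in both lines, and every direction below is that of the labels. It fell by 3.57 in PANC-1 and fell by 4.92 in SW1990 on the log2 scale, and the difference of 1.35 passed the test (standard error 0.11, adjusted p = 0.00019 from limma). Whether the labels were exchanged was not tested, and an exchange would turn the sign of every change and every difference given here. The sources used here also do not say if the GLI1 probe set can read the plasmid's transcript.

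Interferons are secreted when sensors in the cell meet foreign RNA or DNA, and they switch on a set of antiviral genes through receptors and STAT and IRF factors. Many of those genes carry an interferon-stimulated response element in their promoter, which these factors bind. The same response raises the proteins that load peptides onto MHC class I molecules for display to T cells.

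Over 12 arrays the label effect differed between the lines for 536 genes at a Benjamini-Hochberg adjusted p under 0.05 from limma. The difference was positive for 332 genes (1.48% of those tested) and negative for 204 (0.91%), and it reached 2-fold for 78 and 27 of them. The median absolute difference of the 536 genes was 0.63 on the log2 scale, while the median difference of all genes was -0.01. On the values as deposited, before quantile normalization, 228 genes were higher and 235 lower, so the share that was higher was 49.2%, against 61.9% after it. The leading genes belonged to the interferon response. Of 101 measured genes in 5 lists of interferon genes, sensors, chemokines and MHC class I presentation, 25 had a positive called difference and 0 a negative one, and 23 of the 78 genes that were higher by at least 2-fold were among them.
The call in each line over 12 arrays showed in which of them a gene passed. Of the 536 genes, 413 passed in SW1990 and not in PANC-1, where 261 fell and 152 rose in SW1990. Another 75 passed in PANC-1 and not in SW1990, where 39 rose and 36 fell in PANC-1. The lines changed the same way for 34 genes, of which 33 moved further in SW1990, and in opposite ways for 13, and 1 gene passed in neither line. These classes compare calls, and only the difference itself was tested. They also depended on S8. Without it 1202 genes passed in SW1990 and not in PANC-1, and 1467 in PANC-1 and not in SW1990. Over all genes, 9.64% were called in PANC-1 and 18.9% in SW1990.

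**Figure D1:**
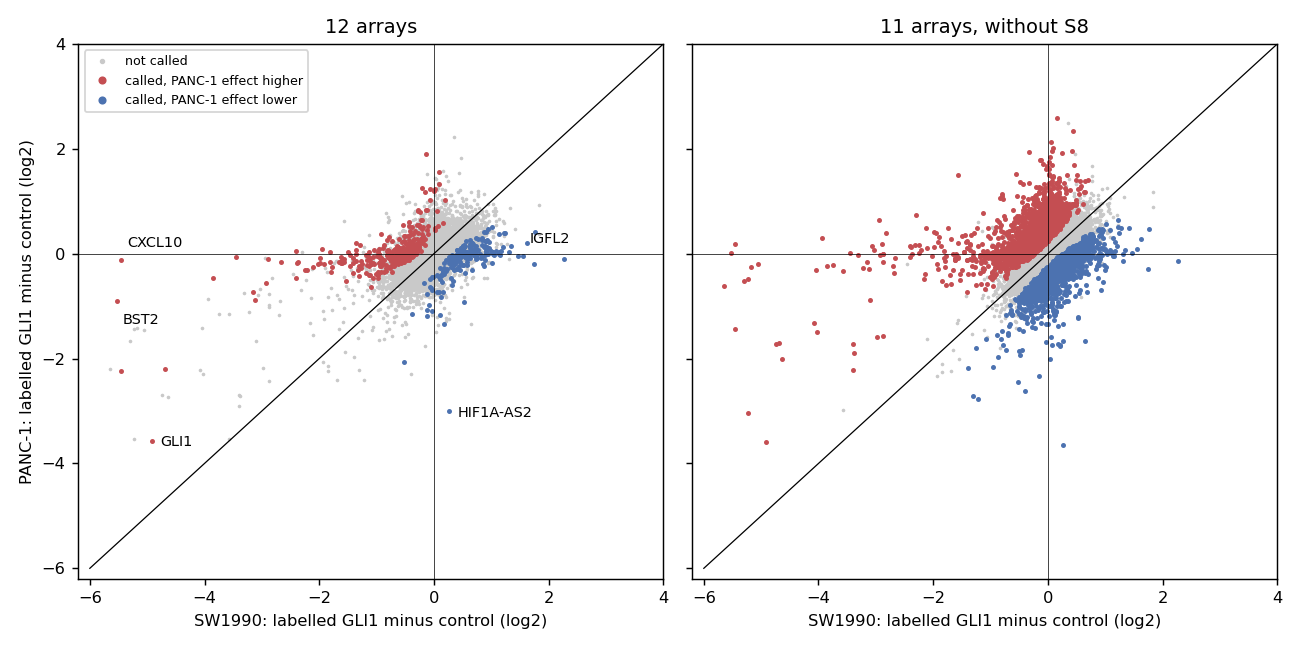
Change in PANC-1 (vertical axis) against the change in SW1990 (horizontal axis), both labelled GLI1 minus labelled control on the log2 scale, with 1 point per gene. The diagonal marks equal change; red and blue points are genes called for a higher (332 over 12 arrays, 1940 without S8) and a lower (204 and 1476) change in PANC-1, and most red points with large differences lie at the left, where SW1990 fell.

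Among the interferon genes, CXCL10 and BST2 had the largest differences over 12 arrays. CXCL10, a chemokine that draws activated T cells, had values of 4.59, 4.61 and 4.62 in PANC-1 arrays labelled GLI1 and 4.37, 4.45 and 5.38 in PANC-1 arrays labelled control (S10, S11 and S8, in this order throughout). In SW1990 it had 4.58, 5.52 and 5.12 in arrays labelled GLI1 and 10.58, 10.50 and 10.51 in arrays labelled control. Only the SW1990 arrays labelled control were high, and the other 9 arrays lay together. CXCL10 fell by 5.45 in SW1990 and was at -0.13 in PANC-1 (adjusted p = 0.861), a difference of 5.32 with a 95% interval of 4.52 to 6.13 (adjusted p = 7.86e-05 from limma). CXCL11, another ligand of the receptor CXCR3 that CXCL10 binds, differed by 3.39 (adjusted p = 7.86e-05), and CXCL9, the remaining ligand, by 0.73 from a low level (adjusted p = 0.0328, and up to 0.0854 with 1 array left out). CCL5, which draws T cells through another receptor, fell by 2.18 in PANC-1 and fell by 2.99 in SW1990, and its difference of 0.81 did not pass (adjusted p = 0.511).
BST2, a membrane protein that holds back budding virions, gave 5.56, 5.67 and 5.75 in PANC-1 arrays labelled GLI1 and 5.68, 5.62 and 8.37 in PANC-1 arrays labelled control. In SW1990 it gave 5.67, 5.83 and 5.78 in arrays labelled GLI1 and 11.16, 11.31 and 11.40 in arrays labelled control. S8 was the only PANC-1 array with a raised level. The difference of BST2 was 4.63 over 12 arrays (standard error 0.78, adjusted p = 0.0135) and 5.54 without S8 (standard error 0.11, adjusted p = 1.7e-09). EPSTI1, an interferon-induced gene, had 4.88, 4.93 and 5.03 in PANC-1 arrays labelled GLI1 and 4.93, 4.95 and 5.12 in PANC-1 arrays labelled control, while SW1990 had 4.99, 5.17 and 5.20 in arrays labelled GLI1 and 8.66, 8.57 and 8.45 in arrays labelled control. No PANC-1 array of EPSTI1 stood apart, and its difference of 3.39 had the smallest p-value of all genes (adjusted p = 1.74e-07).
Further antiviral genes moved likewise. RSAD2, the antiviral enzyme viperin, differed by 3.21 (adjusted p = 0.0468), MX2, a GTPase that blocks viral nuclear entry, by 2.79 (adjusted p = 0.000451), OASL, a relative of the RNA-sensing OAS enzymes, by 2.50 (adjusted p = 0.0232), HERC6, a HECT-type ubiquitin ligase family member, by 2.42 (adjusted p = 0.0313), and ISG15, a ubiquitin-like modifier, by 1.46 (adjusted p = 0.0102). RSAD2 fell by 2.24 in PANC-1 and fell by 5.45 in SW1990, and OASL fell by 2.20 in PANC-1 and fell by 4.69 in SW1990. In the fits that left out 1 array, the adjusted p of RSAD2, OASL and HERC6 reached 0.111, 0.0626 and 0.0827, so their calls were lost with 1 array left out.

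**Figure D2:**
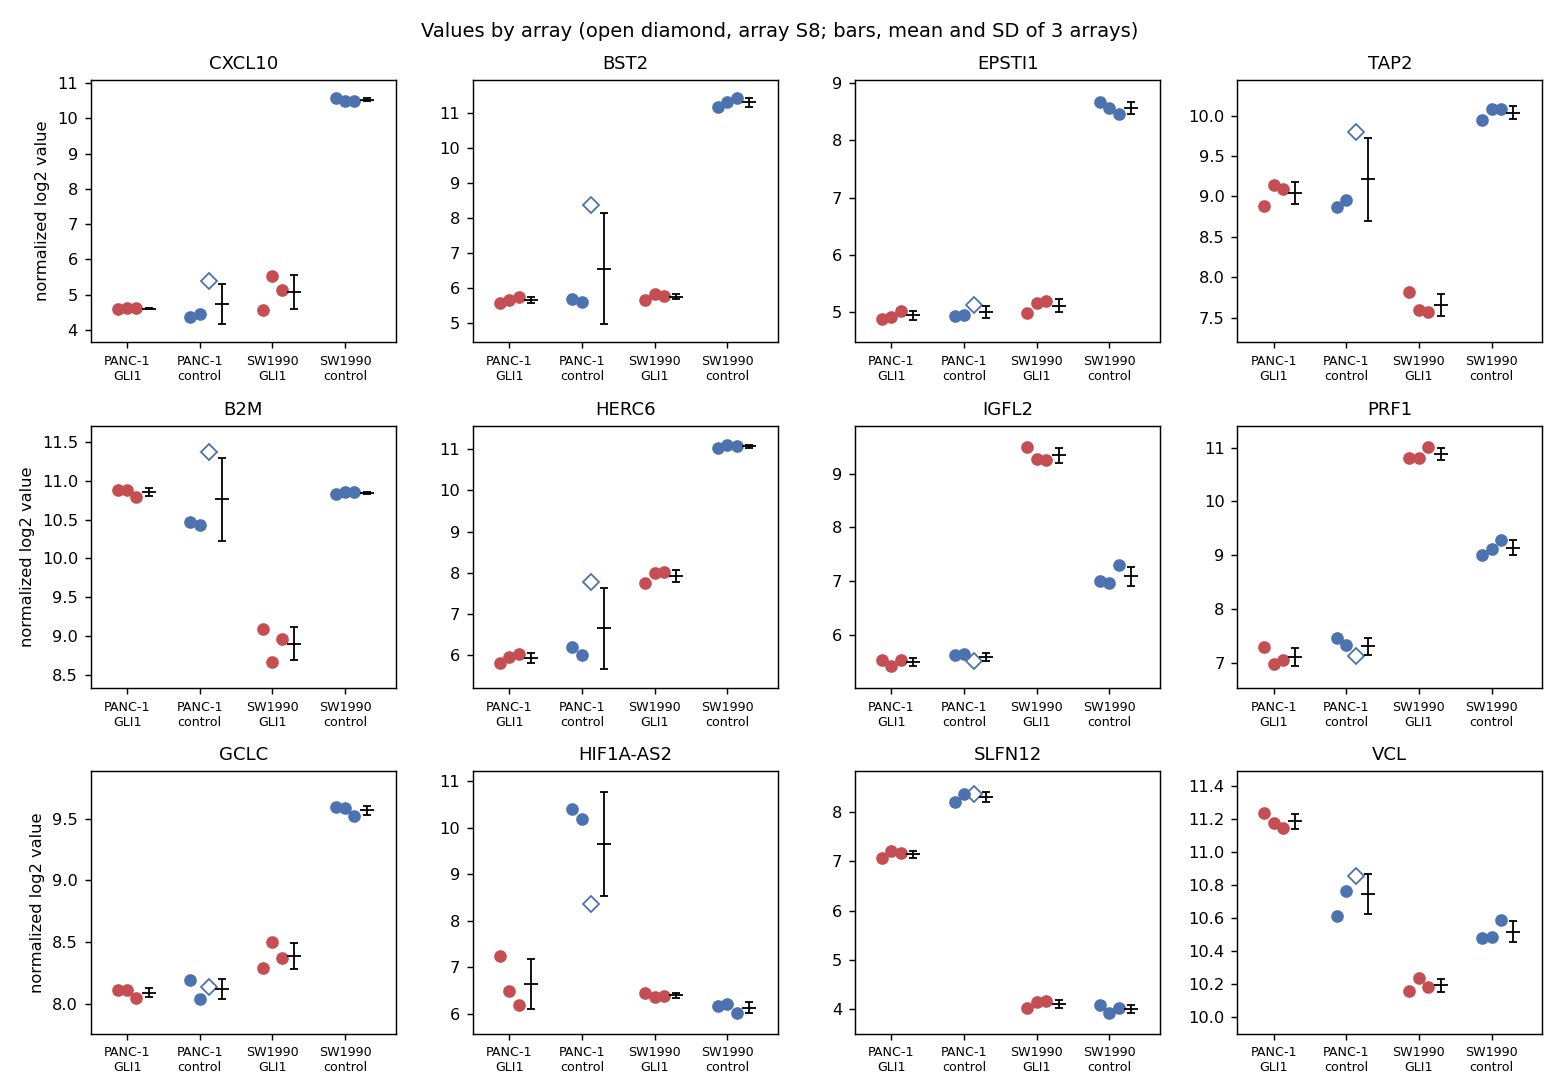
Normalized log2 value of 12 genes in each array, with PANC-1 left of SW1990 and arrays labelled GLI1 (red) left of arrays labelled control (blue); the black mark and bars are the mean and SD of 3 arrays and the open diamond is S8. CXCL10, BST2 and EPSTI1 are high only in SW1990 control arrays except for S8 in BST2, and in HIF1A-AS2 and SLFN12 the labels are far apart in PANC-1 and close together in SW1990.

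Over 12 arrays 1.48% of all genes had a positive called difference and 0.91% a negative one. As a list, the interferon-stimulated genes held 48 measured members, of which 12 had a positive called difference and 0 a negative one. Their median difference was 1.92, made of a median change of -0.87 in PANC-1 and -2.99 in SW1990. In SW1990 44 of the 48 were called lower, and in PANC-1 10 were. Of all genes, 18.9% were called in SW1990 and 9.64% in PANC-1, in either direction. The median level of the list was 6.55 to 6.64 in the PANC-1 arrays labelled GLI1 and 7.28, 6.72 and 9.31 in S10, S11 and S8. In SW1990 it was 6.52 to 6.71 in the arrays labelled GLI1 and 10.17 to 10.29 in the arrays labelled control. Both lines thus had like levels in the arrays labelled GLI1. All 48 genes were higher in S8 than in each of the other 5 PANC-1 arrays.
That array decided how many of these genes were called. Without S8, 45 of the 48 were called higher and 0 lower, where 8.66% of all genes were called higher, and the median difference was 2.67. IFI44L and IFI44, interferon-induced proteins, had 7.47 and 7.90 in S8, against 3.83 and 4.69 in S10. Their differences were 3.60 (adjusted p = 0.116) and 3.63 (adjusted p = 0.0882) over 12 arrays and 4.86 (adjusted p = 1.54e-08) and 4.77 (adjusted p = 4.88e-08) without S8. With S8 as the only PANC-1 control array, a fit chosen after seeing the data, the median difference of the list was 0.53. That fit assumes this lone array to vary like the others. The size of the difference in interferon genes therefore ran from a list median of 0.53 with S8 alone to 2.67 without it, and the median kept its sign.

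Upstream of these genes, fewer members passed. TLR3, the endosomal sensor of double-stranded RNA, differed by 2.21 (adjusted p = 0.000263) and IRF1, a transcription factor of the interferon response, by 1.49 (adjusted p = 0.00138). They were the 2 called of 15 measured sensors and their factors, where 1.48% of all genes were called higher. The list median was 0.36, and -0.08 with S8 as the only PANC-1 control. Among 18 measured interferons and receptors, only IFNGR1, a chain of the receptor for interferon gamma, was called, at 0.62 (adjusted p = 0.0397). That list had a median of 0.24, and with S8 as the only PANC-1 control one of -0.08 with 3 genes called lower. IFNL2, an interferon lambda that shares near-identical sequence with IFNL3, fell by 2.70 in PANC-1 and fell by 3.40 in SW1990. Its values were 6.98, 7.08 and 7.14 in PANC-1 arrays labelled GLI1 and 8.98, 8.59 and 11.72 in PANC-1 arrays labelled control, so that S8 held the highest level. The difference of IFNL2 was 0.70 over 12 arrays (adjusted p = 0.765), 1.68 without S8 (adjusted p = 0.000155) and -1.26 with S8 as the only PANC-1 control (adjusted p = 0.00657), and its sign thus turned with the control array used. SP100, a protein of nuclear bodies and one of the genes of the study, differed by 1.79 (adjusted p = 0.076), and by 2.31 without S8 (adjusted p = 3.96e-06).

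Genes of MHC class I presentation had a median change of -0.13 in PANC-1 and -1.37 in SW1990. TAP2, a subunit of the transporter that carries peptides into the endoplasmic reticulum, had 8.89, 9.14 and 9.10 in PANC-1 arrays labelled GLI1 and 8.87, 8.96 and 9.80 in PANC-1 arrays labelled control. SW1990 had 7.81, 7.59 and 7.57 in arrays labelled GLI1 and 9.95, 10.08 and 10.09 in arrays labelled control. The groups of SW1990 did not overlap, and those of PANC-1 did. TAP2 differed by 2.21 (adjusted p = 0.00272), its partner TAP1 by 2.38 (adjusted p = 0.0247) and B2M, the light chain of every class I molecule, by 2.04 (adjusted p = 0.00599).
B2M stood at 10.85 ± 0.05 in PANC-1 arrays labelled GLI1 and 10.76 ± 0.53 in PANC-1 arrays labelled control, and at 8.90 ± 0.21 in SW1990 arrays labelled GLI1 and 10.85 ± 0.01 in SW1990 arrays labelled control (SD, n = 3 each). NLRC5, the transactivator of class I genes, differed by 1.07 (adjusted p = 0.019), and HCP5, a noncoding gene of the HLA region, by 2.52 (adjusted p = 0.000147). Of 16 measured genes of the list, 7 were called higher and 0 lower, where 1.48% and 0.91% of all genes were. The median difference of the list was 1.13. Without S8, 15 were called higher, where 8.66% of all genes were. The median level of the list was 9.01 to 9.07 in the PANC-1 arrays labelled GLI1, 9.02, 9.01 and 10.10 in S10, S11 and S8, 8.27 to 8.64 in the SW1990 arrays labelled GLI1 and 10.54 to 10.57 in those labelled control.
Of 18 measured NF-kB and cytokine genes, 2 were called higher, where 1.48% of all genes were. NFKBIZ, a nuclear co-regulator of NF-kB, differed by 1.44 (adjusted p = 0.0135) and CXCL2, a chemokine for neutrophils, by 0.89 (adjusted p = 0.0234). The median difference of this list was 0.11, against 1.92 in the interferon-stimulated genes.

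**Figure D3:**
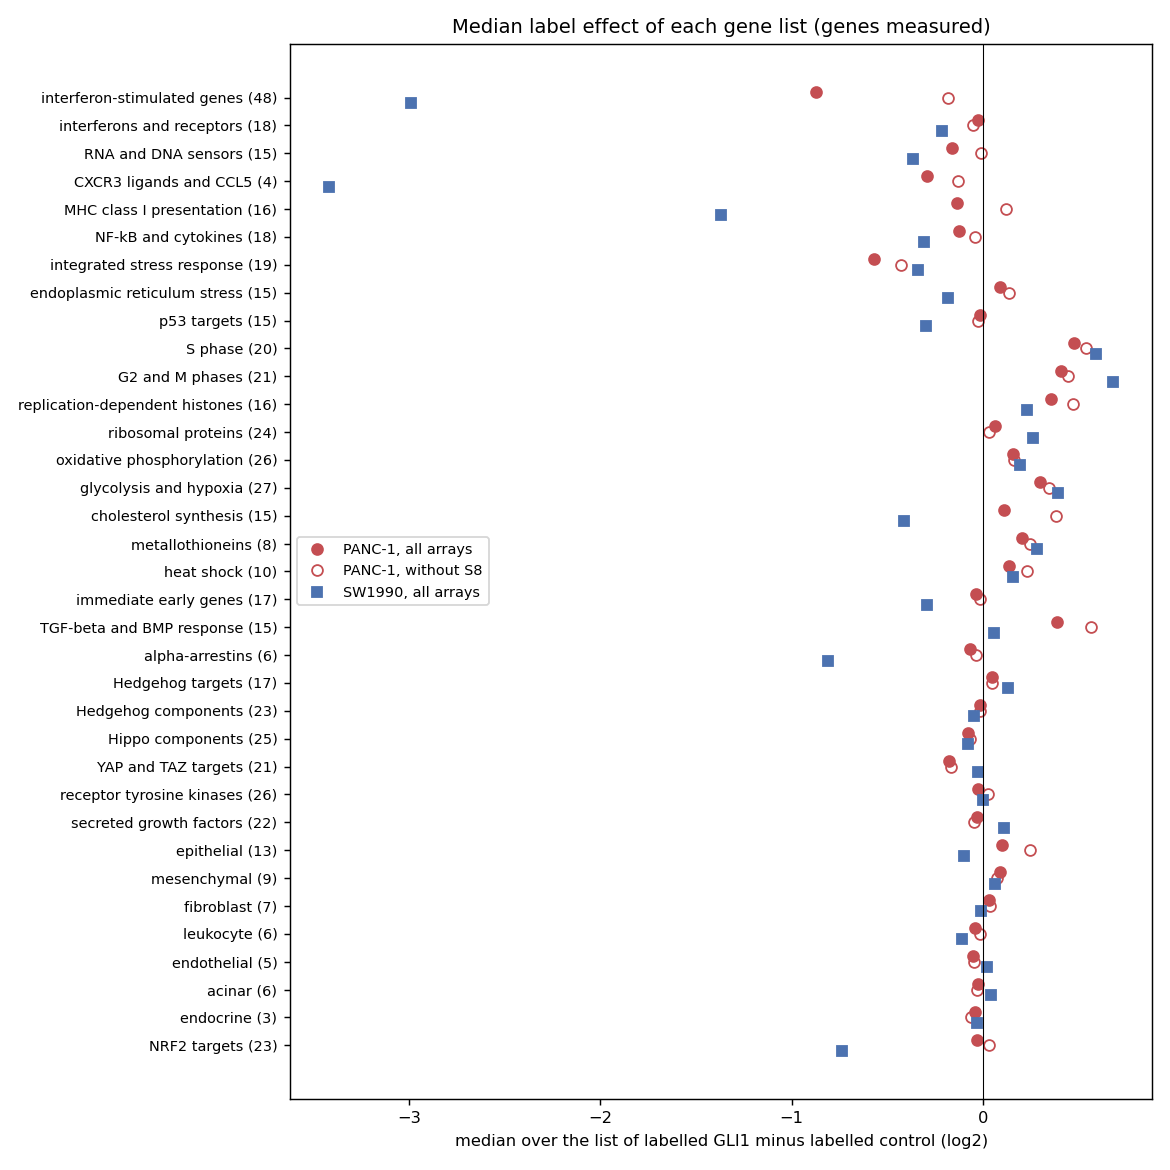
Median change of every gene list except the genes of the study, labelled GLI1 minus labelled control on the log2 scale, with red circles for PANC-1 (filled with all arrays, open without S8) and blue squares for SW1990; the number of genes measured is in parentheses. The lines are furthest apart in the 4 genes of CXCR3 ligands and CCL5 (-0.29 in PANC-1, -0.13 without S8, -3.42 in SW1990), followed by the interferon-stimulated genes (-0.87, -0.18 and -2.99) and the MHC class I genes (-0.13, 0.12 and -1.37).

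Since many genes of this response share a promoter element, the promoters of the called genes were searched. RefSeq promoters (GRCh38.p14, 250 bases before to 50 after the start) were matched for 15374 of the 22411 genes. The core of the interferon-stimulated response element, spelled GAAA, any 2 bases and GAAA again, on either strand, was found in 482 of them (3.14%). It was in 34 of 254 promoters of genes with a positive called difference (13.4%), in 0 of 159 with a negative one, and in 27 of 37 of the interferon-stimulated genes (73.0%). A match is a description of letters, and no binding was measured. The stretches around it are shown for 6 genes whose differences were among those above, with the matches in capitals (2 overlapping matches in BST2, B2M and ISG15). They lie at chr4:76023679-76023738 (CXCL10, minus strand), chr19:17405721-17405780 (BST2, minus strand), chr13:42992252-42992311 (EPSTI1, minus strand), chr6:32838758-32838817 (TAP2, minus strand), chr15:44711353-44711412 (B2M, plus strand) and chr1:1013364-1013423 (ISG15, plus strand).
CXCL10: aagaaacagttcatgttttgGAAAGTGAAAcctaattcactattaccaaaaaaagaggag
BST2: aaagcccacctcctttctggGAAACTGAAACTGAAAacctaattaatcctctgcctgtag
EPSTI1: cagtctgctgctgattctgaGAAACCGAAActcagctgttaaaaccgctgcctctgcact
TAP2: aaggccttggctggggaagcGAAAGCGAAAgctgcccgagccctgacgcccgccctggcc
B2M: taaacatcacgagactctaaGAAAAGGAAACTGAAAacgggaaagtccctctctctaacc
ISG15: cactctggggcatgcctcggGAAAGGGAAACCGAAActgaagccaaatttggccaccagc
Counted in bases from the start, the first match began at -221 in CXCL10 and at -50 in EPSTI1, with the other 4 genes in between. The windows of CXCL11, HERC6 and RSAD2 held no match.

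Some of the most negative differences belonged to genes that rose in SW1990 with no called change in PANC-1. Others, led by HIF1A-AS2 (-3.27), belonged to genes that fell in PANC-1, described further below. IGFL2, a secreted growth factor-like protein, had 5.53, 5.41 and 5.53 in PANC-1 arrays labelled GLI1 and 5.62, 5.63 and 5.50 in PANC-1 arrays labelled control. SW1990 had 9.50, 9.27 and 9.27 in arrays labelled GLI1 and 7.0, 6.96 and 7.30 in arrays labelled control. Its levels in PANC-1 lay below the median gene (7.21) in every array, and S8 did not stand apart. IGFL2 differed by -2.36 with a 95% interval of -2.65 to -2.06 (adjusted p = 2.42e-05), and by -2.40 without S8.
PRF1, the pore-forming protein perforin of cytotoxic lymphocytes, had 7.29, 6.98 and 7.05 in PANC-1 arrays labelled GLI1 and 7.46, 7.33 and 7.13 in PANC-1 arrays labelled control, against 10.81, 10.81 and 11.01 in SW1990 arrays labelled GLI1 and 9.01, 9.13 and 9.29 in SW1990 arrays labelled control. It differed by -1.94 (adjusted p = 0.000147), and CRTAM, a surface receptor of activated T and NK cells, by -1.03 (adjusted p = 7.86e-05). Neither gene is typical of pancreatic cells. The 6 measured leukocyte markers had a median level of 6.10 to 6.40 in all 12 arrays, and 1 of them was called, CD14, at 0.68 (adjusted p = 0.0375).
Among 22 measured secreted growth factors, 3 were called lower and 0 higher, where 0.91% and 1.48% of all genes were. Beside IGFL2 these were FGF20 at -1.42 (adjusted p = 0.00367 from limma) and FGF9 at -0.65 (adjusted p = 0.0145). Both of these fibroblast growth factors rose in SW1990, by 1.62 and 0.57. HAS2, a hyaluronan synthase, differed by -1.59 (adjusted p = 0.00283) and rose by 1.55 in SW1990, and its level was higher in PANC-1 throughout, at 9.46 to 10.05 in the control arrays. KRTAP3-1, a hair keratin-associated protein, differed by -1.50 (adjusted p = 0.00723).

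Further genes of several groups passed in SW1990 and not in PANC-1. ARRDC3, an arrestin-like adaptor, fell by 2.40 in SW1990 and was at 0.04 in PANC-1 (adjusted p = 0.904), a difference of 2.44 (adjusted p = 7.86e-05). Its relative TXNIP, an inhibitor of thioredoxin, fell by 2.40 in PANC-1 and fell by 1.69 in SW1990, and its difference of -0.71 did not pass (adjusted p = 0.469). The p53 targets MDM2, the ligase that degrades p53, and TIGAR, a regulator of glycolysis, differed by 0.50 (adjusted p = 0.0222) and 0.36 (adjusted p = 0.0397), and they were 2 of 15 measured targets. DNAJC3, an inhibitor of a stress kinase of the endoplasmic reticulum, differed by 0.62 (adjusted p = 0.0113 from limma) and was 1 of 15 genes of that list. Without S8, 8 of the list were called higher, where 8.66% of all genes were. Over 12 arrays the share of all genes called higher was 1.48%.
Of the metabolic lists, ENO1, a glycolytic enzyme, and EGLN3, an oxygen-sensing hydroxylase, were called lower, at -0.40 (adjusted p = 0.0161) and -0.80 (adjusted p = 0.0247), 2 of 27 genes of glycolysis and hypoxia. Over 12 arrays 0.91% of all genes were called lower. None of 26 genes of oxidative phosphorylation or 15 of cholesterol synthesis passed over 12 arrays or without S8. Their medians were -0.07 and 0.38 over 12 arrays, and -0.04 and 0.60 without S8. For cholesterol synthesis 13 of the 15 differences were positive over 12 arrays. Its list median ran from 8.43 to 9.65 in PANC-1 arrays labelled GLI1 and from 8.44 to 9.76 in those labelled control. With that spread, the lack of calls does not show that these genes changed alike.
The lists of growth genes had medians of the same sign in both lines, and few members were called over 12 arrays. Of 24 measured ribosomal protein genes 3 were called lower, among them RPS23 at -0.58 (adjusted p = 0.0067 from limma) and RPS14 at -0.53 (adjusted p = 0.0286), both proteins of the small ribosomal subunit. Over all genes 0.91% were called lower over 12 arrays. Without S8, 10 ribosomal protein genes were called lower, where 6.59% of all genes were. Only 1 of the 24 had a positive difference over 12 arrays. The median change of the list was 0.06 in PANC-1 and 0.26 in SW1990. CDC20, which switches on the anaphase-promoting complex, differed by -0.58 (adjusted p = 0.0422) and was the only call among 21 genes of the G2 and M phases, of which 20 had a negative difference. No gene among 20 of S phase and 19 of the integrated stress response was called over 12 arrays, where 2.39% of all genes were.

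A smaller group passed in PANC-1 and not in SW1990 over 12 arrays. HIF1A-AS2, a noncoding RNA antisense to the end of the hypoxia factor gene HIF1A, had 7.24, 6.49 and 6.19 in PANC-1 arrays labelled GLI1 and 10.39, 10.20 and 8.36 in PANC-1 arrays labelled control. The SW1990 values were 6.46, 6.36 and 6.38 in arrays labelled GLI1 and 6.18, 6.22 and 6.01 in arrays labelled control. The PANC-1 groups did not overlap, and S8 lay between the others. The difference of -3.27 (adjusted p = 0.0224) was the most negative of all named genes, and it was -3.91 without S8 (adjusted p = 3.16e-05) and -1.98 with S8 as the only control (adjusted p = 0.0354). SNAPC1, a subunit of a complex for small nuclear RNA transcription that lies near HIF1A-AS2 on chromosome 14, differed by -1.55 (adjusted p = 0.0469), with 9.29 in S8 against 10.54 and 10.31 in S10 and S11. Without S8, SNAPC1 also passed in SW1990, where it fell by 0.52 (adjusted p = 0.00392).
SLFN12, a member of the Schlafen family, did not depend on S8. It had 7.06, 7.20 and 7.16 in PANC-1 arrays labelled GLI1 and 8.20, 8.37 and 8.37 in PANC-1 arrays labelled control, while in SW1990 it was low, at 4.02, 4.15 and 4.16 in arrays labelled GLI1 and 4.07, 3.92 and 4.02 in arrays labelled control. It differed by -1.27 (adjusted p = 0.000147). SERPINB8, a serine protease inhibitor, differed by -1.46 (adjusted p = 0.0457), and without S8 it also passed in SW1990, in the opposite direction, at 0.53 (adjusted p = 0.0272). ID2, an inhibitor of helix-loop-helix factors, rose by 1.48 in PANC-1, and its difference of 1.27 did not pass (adjusted p = 0.115), with 7.87 in S11 against 6.50 in S10 and 6.64 in S8.
In PANC-1 the small nucleolar RNAs of the SNORD114 cluster on chromosome 14 were higher in arrays labelled GLI1. These guide RNAs come from an imprinted locus and have near-identical copies, so that their probe sets may read each other. All 31 measured copies had a positive difference, at a median of 0.76. Of these, 7 were called, where 1.48% of all genes were called higher, and 13 without S8, where 8.66% were. SNORD114-18 had 5.84, 5.65 and 5.14 in PANC-1 arrays labelled GLI1 and 3.98, 4.16 and 3.79 in PANC-1 arrays labelled control, against 3.04, 2.51 and 2.79 in SW1990 arrays labelled GLI1 and 2.54, 2.71 and 2.81 in SW1990 arrays labelled control. Its level in SW1990 was at most 3.04, far below the median gene. The difference was 1.47 for SNORD114-18 (adjusted p = 0.0145) and for SNORD114-6 (adjusted p = 0.0187) and 1.12 for SNORD114-14 (adjusted p = 0.0256), 3 genes chosen after their values were seen. Among the copies of other snoRNA families of imprinted loci, 0 of 9 of SNORD113, 0 of 31 of SNORD115 and 0 of 19 of SNORD116 were called higher over 12 arrays. SNORD113 still moved like SNORD114, with 8 of 9 differences positive at a median of 0.56 (0.70 in PANC-1 and 0.13 in SW1990). Without S8, 1 copy of SNORD113, 0 of SNORD115 and 5 of SNORD116 were called higher, where 8.66% of all genes were.

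In 13 genes both lines passed in opposite directions. VCL, the focal adhesion protein vinculin, had 11.23, 11.18 and 11.15 in PANC-1 arrays labelled GLI1 and 10.61, 10.76 and 10.85 in PANC-1 arrays labelled control. In SW1990 it had 10.16, 10.24 and 10.18 in arrays labelled GLI1 and 10.48, 10.49 and 10.59 in arrays labelled control. It rose in PANC-1 and fell in SW1990, without overlap in either line, and differed by 0.77 (adjusted p = 0.00202). PTGR1, a reductase of prostaglandins and reactive aldehydes, differed by 0.84 (adjusted p = 0.00402), TNFSF9, a ligand that co-stimulates T cells, by 1.08 (adjusted p = 0.00708), NR4A1, an immediate early nuclear receptor, by 0.74 (adjusted p = 0.0113), POLH, a DNA polymerase that copies past ultraviolet damage, by 0.97 (adjusted p = 0.0113), and ASPH, an aspartyl hydroxylase, by 0.62 (adjusted p = 0.0149). All of these rose in PANC-1 and fell in SW1990. RPL22L1, a paralog of a ribosomal protein, ran the other way, at -0.30 in PANC-1 and 0.39 in SW1990, a difference of -0.69 (adjusted p = 0.00589).

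Of 1041 genes of microRNA precursors, 7 were called (0.672%), a smaller share than the 2.39% called over all genes in both directions. MicroRNAs pair with target transcripts through their seed, bases 2 to 8, and 3 of the called precursors, MIR106B, MIR93 and MIR25, come from 1 cluster inside the gene MCM7 on chromosome 7. MIR106B had 6.86, 6.75 and 6.97 in PANC-1 arrays labelled GLI1 and 7.09, 6.63 and 6.87 in PANC-1 arrays labelled control, against 7.11, 7.21 and 7.16 in SW1990 arrays labelled GLI1 and 6.12, 6.45 and 6.21 in SW1990 arrays labelled control. The precursor rose in SW1990, where the groups did not overlap, and the PANC-1 groups overlapped. MIR106B, MIR93 and MIR25 differed by -0.90 (adjusted p = 0.0184), -0.97 (adjusted p = 0.0135) and -0.74 (adjusted p = 0.0432). Their host MCM7, part of the helicase that opens DNA for replication, rose by 0.56 in SW1990, and its difference of -0.34 did not pass (adjusted p = 0.104). MIR141 and MIR135B rose in SW1990 and differed by -0.93 (adjusted p = 0.0123) and -1.07 (adjusted p = 0.0135), and MIR100 fell in PANC-1 and differed by -1.52 (adjusted p = 0.0113). These arrays read precursors, and mature microRNAs were not analysed here. Except MIR100, these genes were chosen after their values were seen. A principal mature sequence of each is given from RefSeq with the seed in capitals, which shows the seed that miR-106b-5p and miR-93-5p share.
miR-106b-5p: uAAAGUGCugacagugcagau
miR-93-5p: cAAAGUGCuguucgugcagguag
miR-25-3p: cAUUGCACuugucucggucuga
miR-141-3p: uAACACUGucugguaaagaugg
miR-135b-5p: uAUGGCUUuucauuccuauguga
miR-100-5p: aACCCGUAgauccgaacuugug
MIR301A, the precursor of the microRNA the study turns on, had at most 3.61 in any array and differed by -0.37 (adjusted p = 0.48), with -0.58 without S8 (adjusted p = 0.0285) and 0.06 with S8 as the only PANC-1 control.

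Genes of the Hedgehog and Hippo pathways were compared because the study asked how these pathways interact. Among 17 measured Hedgehog targets none was called over 12 arrays. PTCH1, the Hedgehog receptor and a direct GLI1 target, differed by -0.07 with a 95% interval of -0.29 to 0.15 (adjusted p = 0.812 from limma). A small difference between the lines does not show whether PTCH1 changed in either of them. BCL2, an inhibitor of apoptosis, differed by -0.59 (adjusted p = 0.0856). Of 23 components, KIF3A, a motor of the primary cilium, was called at 0.48 (adjusted p = 0.0193), and it fell by 0.41 in SW1990. Among 25 Hippo components and 21 YAP and TAZ targets none passed over 12 arrays. Since only 2.39% of all genes were called in either direction, absent or single calls in lists this short say little about these pathways. STK4, the Hippo kinase MST1, differed by 0.16 with an interval of -0.10 to 0.43 (adjusted p = 0.569), and YAP1, the co-activator that this cascade restrains, by -0.22 (adjusted p = 0.117). Without S8, 9 of the 21 YAP and TAZ targets were called lower and 1 higher, where 6.59% of all genes were called lower and 8.66% higher. Of the 25 Hippo components 4 were then called lower and 2 higher. Of the 17 Hedgehog targets 1 was called lower and 1 higher, and of the 23 Hedgehog components 0 and 2. FJX1, a secreted kinase-like protein, differed by -1.42 without S8 (adjusted p = 0.000457 from limma) against -1.13 over 12 arrays (adjusted p = 0.0809). GADD45A, a stress and DNA damage gene, fell by 2.40 in PANC-1 and fell by 1.23 in SW1990, and its difference of -1.18 did not pass (adjusted p = 0.13), with -1.55 without S8 (adjusted p = 0.000652).

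Without S8 the label effect differed for 3416 genes, 1940 higher (8.66%) and 1476 lower (6.59%) in PANC-1, and all 536 genes were among them with the same sign. Of the values as deposited, 1476 were higher and 1865 lower. The 2880 genes gained had a median standard error of 0.11 without S8 and 0.16 with it, and a median absolute difference of 0.49 without it and 0.36 with it. Both the spread and the size of the difference thus changed with that array. Of the 3416 genes, 1467 passed in PANC-1 and not in SW1990, against 75 over 12 arrays. Another 1202 passed in SW1990 and not in PANC-1, against 413 over 12 arrays. Without S8, 24.3% of all genes were called in PANC-1.
Where S8 lay in those genes was measured on a scale on which 0 is the mean of S10 and S11 and 1 the mean of the PANC-1 arrays labelled GLI1. In the 2107 genes called without S8 both for the difference and in PANC-1, its median position was 0.94 (quartiles 0.66 and 1.22), and it lay nearer to the arrays labelled GLI1 in 1786 (84.8%). These genes were chosen by a difference between S10 and S11 and the arrays labelled GLI1, and other sets gave lower positions. In the 75 genes that passed over 12 arrays in PANC-1 and not in SW1990 the median was 0.31, with 16 (21.3%) nearer to the arrays labelled GLI1. Those 75 were called with S8 among the control arrays, a choice that favours genes where S8 lay near S10 and S11. Their low position therefore says nothing independent about S8. The median position was 0.44 in 18 S phase genes and 0.55 in 13 genes of the integrated stress response called in PANC-1 without S8. In GLI1 itself the position was 0.02, among the other control arrays. KRT8, a keratin of simple epithelia, had 11.48, 11.51 and 11.62 in PANC-1 arrays labelled GLI1 and 10.46, 10.58 and 11.81 in S10, S11 and S8, and differed by 0.49 over 12 arrays (adjusted p = 0.583) and 0.92 without S8 (adjusted p = 6.25e-05). LTBP2, a matrix protein that binds fibrillin, and PSAT1, an enzyme of serine synthesis, followed the same pattern, with 9.30 and 11.23 in S8 against 8.34 and 10.06 in S10. Their differences were 1.16 (adjusted p = 1.86e-05) and 0.73 (adjusted p = 0.00215) without S8.

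**Figure D4:**
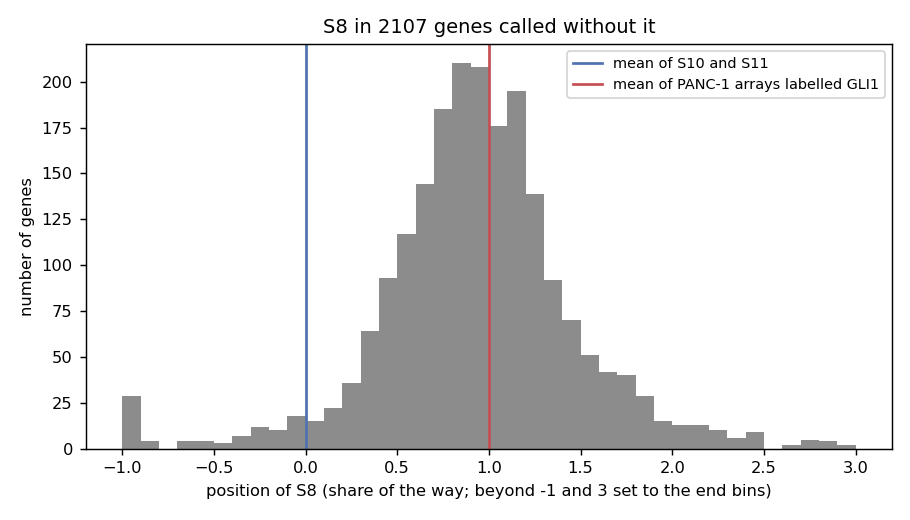
Number of genes by the position of S8 between the mean of S10 and S11 (0, blue line) and the mean of the PANC-1 arrays labelled GLI1 (1, red line), for 2107 genes called without S8 for the difference and in PANC-1. The median is 0.94, and 1786 of these genes, which were chosen by a difference of S10 and S11 from the arrays labelled GLI1, lie nearer to 1 than to 0.

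With S8 as the only PANC-1 control array 339 genes were called (1.51%), of which 199 were among the 536 with the same sign. Of the 3416 genes called without S8, 230 were also called with S8 alone in the same direction and 19 in the opposite one, although both fits share 9 arrays. The 2880 gained genes were by definition not called once S8 was included. How few of them pass with S8 alone is largely fixed by that choice, and nothing is read from it. Across the 12 fits that each left out 1 array, 195 of the 536 genes were called every time, 135 higher and 60 lower, and 143 of the 195 also with S8 alone. The 195 genes included CXCL10, CXCL11, BST2, EPSTI1, MX2, TLR3, IRF1, TAP2, B2M, ARRDC3, IGFL2, PRF1, GCLC, SLFN12 and VCL. They did not include RSAD2, OASL, TAP1, HERC6 or HIF1A-AS2.

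**Figure D5:**
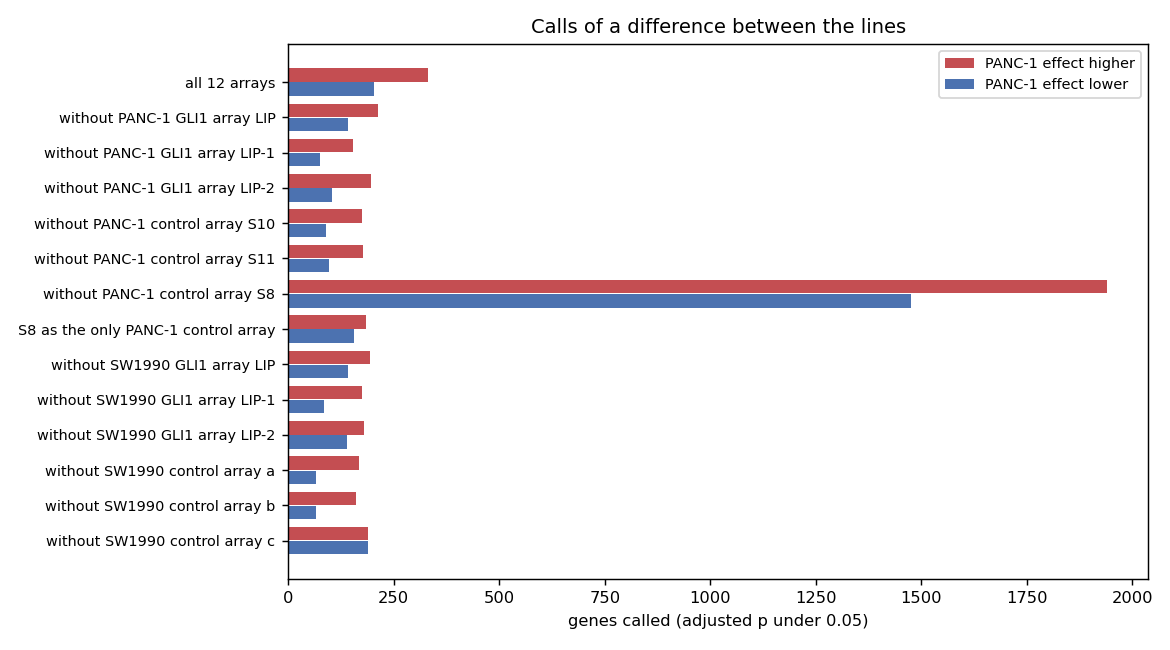
Number of genes called for a higher (red) and lower (blue) change in PANC-1 with all 12 arrays and with each array left out in turn. The count is 536 in all with 12 arrays, 228 to 380 without any array but S8, and 3416 without S8.

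The difference can also be read as the gap between the lines. Over the 332 genes with a positive difference, the median size of the gap between PANC-1 and SW1990 was 0.36 in arrays labelled GLI1 and 0.76 in arrays labelled control, and the gap was smaller in arrays labelled GLI1 for 236 (71.1%). Over the 204 genes with a negative difference it was 0.66 and 0.52, and smaller in arrays labelled GLI1 for 74 (36.3%). Of all genes 50.9% had the smaller gap in arrays labelled GLI1. CXCL10 had a gap of -0.47 in arrays labelled GLI1 and -5.79 in arrays labelled control. B2M went the other way, with 1.95 in arrays labelled GLI1 and -0.09 in arrays labelled control, and IGFL2 had -3.86 and -1.50.
Many of the genes were dim in 1 line. Of the 536, both means of PANC-1 lay below the median gene level of 7.21 for 231, both means of SW1990 for 161, and those of both lines for 140. Of the 413 genes that passed only in SW1990, 86 were below that level in PANC-1 and not in SW1990.
The epithelial and mesenchymal marker lists differed in level between the lines. The median of 13 epithelial genes was 7.95 to 8.19 in PANC-1 and 10.22 to 10.59 in SW1990, and that of 9 mesenchymal genes 7.80 to 9.02 in PANC-1 and 6.12 to 6.46 in SW1990. ESRP1, an epithelial splicing factor that was low in PANC-1, differed by 0.52 (adjusted p = 0.038) and fell by 0.61 in SW1990. Fibroblast markers had a median of 4.42 to 4.56, endothelial ones 5.21 to 6.10 and acinar ones 5.99 to 6.86, all below the median gene. The 3 measured endocrine markers had a median of 7.02 to 7.24, about the level of the median gene (7.21). FAP, a fibroblast protease, differed by 0.77 (adjusted p = 0.0016) at levels of 3.53 to 4.42, and PRSS1, the acinar enzyme trypsinogen, by -0.78 (adjusted p = 0.0044) at 5.25 to 6.99. The part of other cells in any difference was not tested.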

How the data were processed

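Each array has 70523 probe sets with log2 values that the authors deposited, background-corrected and normalized with tools not named in the sources used here. Biotin, Trizol and the Affymetrix Human Transcriptome Array are what labels and probe sets show, while the paper's methods speak of Agilent slides, Cyanine-3 and mirVana. Detection calls were not used here. Arrays have no depth, and precision is limited by how many there are.

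The values were quantile normalized, since array medians ran from 5.86 to 6.00. Of the probe sets, 23781 had 1 symbol (1543 several, 45199 none), updated through Entrez IDs for 21497. The brightest probe set stood for each of the 528 genes with several, and no gene was filtered as dim. A model of 4 group means without covariates was fitted with lmFit and eBayes in limma 3.58.1 and R 4.3.3, leaving 8 residual degrees of freedom (7 without S8, which was dropped after normalization). P-values of each contrast were adjusted by the Benjamini-Hochberg method over 22411 genes and called under 0.05. The fit was tested on simulated arrays. Tables and plots used Python 3.11.15, pandas 2.3.3, numpy 2.4.6 and matplotlib 3.10.9.

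The comparison, lists and rule for named genes were chosen with earlier results of these data known. Named were the 8 largest positive and negative differences and 8 smallest p-values among called genes, the 8 largest of each sign without S8, up to 8 genes called in opposite directions, up to 3 genes per list by p in each fit, and the genes of the study, leaving out clone, LOC and orf names. Not every such gene is described. Genes outside the rule are the 3 SNORD114 copies, 5 microRNA precursors and 8 genes of glutathione and detoxification (the closing section), chosen after their values were seen. Alternatives were other scalings, probe set rules, a filter on dim genes, other variance models, array weights, thresholds, a replicate block, and leaving out each array.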

Additional observations from a re-analysis of the deposited data

Results flagged for a closer look

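The genes in this part were singled out because the test of the difference itself passed. All values are differences of log2 changes, PANC-1 minus SW1990, and no explanation was tested. Over 12 arrays the interferon and antigen presentation genes had differences of 5.32 (CXCL10), 4.63 (BST2), 3.39 (CXCL11), 3.39 (EPSTI1), 3.21 (RSAD2), 2.79 (MX2), 2.52 (HCP5), 2.50 (OASL), 2.42 (HERC6), 2.38 (TAP1), 2.21 (TAP2), 2.21 (TLR3), 2.04 (B2M), 1.49 (IRF1), 1.46 (ISG15), 1.07 (NLRC5), 0.73 (CXCL9) and 0.62 (IFNGR1), with 1.44 for NFKBIZ and 0.89 for CXCL2.
Genes that rose in SW1990 had differences of -2.36 (IGFL2), -1.94 (PRF1), -1.59 (HAS2), -1.50 (KRTAP3-1), -1.42 (FGF20), -1.03 (CRTAM), -0.80 (EGLN3), -0.78 (PRSS1), -0.65 (FGF9), -0.58 (CDC20), -0.58 (RPS23), -0.53 (RPS14) and -0.40 (ENO1), and the precursors -1.07 (MIR135B), -0.97 (MIR93), -0.93 (MIR141), -0.90 (MIR106B) and -0.74 (MIR25). Genes that fell in SW1990 had 2.44 (ARRDC3), 1.85 (CYP4F11), 1.43 (AKR1C2), 1.36 (ABCC2), 1.35 (GLI1), 1.17 (AKR1B10), 1.15 (GCLC), 0.77 (FAP), 0.70 (TXNRD1), 0.63 (GCLM), 0.62 (DNAJC3), 0.52 (ESRP1), 0.50 (MDM2), 0.48 (KIF3A) and 0.36 (TIGAR).
Genes that passed in PANC-1 and not in SW1990 over 12 arrays had -3.27 (HIF1A-AS2), -1.55 (SNAPC1), -1.52 (MIR100), -1.46 (SERPINB8), -1.27 (SLFN12), 1.47 (SNORD114-18), 1.47 (SNORD114-6), 1.12 (SNORD114-14) and 0.68 (CD14), of which SNAPC1 and SERPINB8 also passed in SW1990 without S8. Genes that moved in opposite directions had 1.08 (TNFSF9), 0.97 (POLH), 0.84 (PTGR1), 0.77 (VCL), 0.74 (NR4A1), 0.62 (ASPH) and -0.69 (RPL22L1).
Passing only without S8 were IFI44L (4.86), IFI44 (4.77), SP100 (2.31), IFNL2 (1.68), CCL5 (1.41), LTBP2 (1.16), NQO1 (1.13), SLC7A11 (1.12), KRT8 (0.92), BNIP3, a mitophagy receptor (0.79), PSAT1 (0.73), MIR301A (-0.58), BCL2 (-0.68), HMOX1 (-0.86), FJX1 (-1.42) and GADD45A (-1.55).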

How the results depend on the processing

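Over 12 arrays the count of genes with a called difference was 536, and it kept within 1.5 times on the values as deposited, other probe set rules, the filter on dim genes, limma's trend with robust variances and group weights. It was 267 with centring on the array median, 352 with ordinary least squares (3423 at an unadjusted p under 0.05), 234 with a and b averaged, 109 at an adjusted p under 0.01, 105 with 2-fold required as well, and 6039 with array weights, which gave S8 the lowest weight (0.165). Leaving out 1 array gave 228 to 3416, the highest without S8 and the others at most 380. The count was 195 in every such fit together and 339 with S8 as the only PANC-1 control, both added after seeing the data. Without S8 the count of 3416 became 5742 with array weights, 5768 with ordinary least squares at an unadjusted p under 0.05, 1532 at an adjusted p under 0.01 and 405 with 2-fold required, and 1821 (without S10) to 3862 (without LIP of PANC-1) with a further array left out. The label effect was called for 2160 genes in PANC-1, with 728 to 5443 on leaving out 1 array (highest without S8) and 86 with that line fitted alone, and for 4241 in SW1990, with 2793 to 5601.
With a replicate block for the shared names LIP, LIP-1 and LIP-2 the counts were 540 over 12 arrays and 3418 without S8. Same-named arrays of the lines had deviations that correlated at 0.110, 0.017 and 0.060 over all genes, and the main fit did not pair them. Such a correlation cannot show whether a few genes varied together. In the cholesterol synthesis list LIP had the lowest median of the arrays labelled GLI1 in both lines. It was 8.53 against 9.30 and 9.45 in SW1990, and 8.43 against 9.53 and 9.65 in PANC-1. Whether same-named arrays shared more than a name was not tested.
Of the 69 named genes called over 12 arrays, 43 stayed called in each of the 12 fits without 1 array. The other 26 reached an adjusted p of 0.0533 to 0.12 in at least 1 of them, namely CXCL9, RSAD2, OASL, HERC6, IFNGR1, TAP1, NLRC5, CXCL2, CDC20, RPS14, GCLM, ABCC2, MDM2, TIGAR, HIF1A-AS2, SNAPC1, SERPINB8, SNORD114-6, SNORD114-14, MIR106B, MIR25, KIF3A, ENO1, EGLN3, ESRP1 and CD14. No called difference of a named gene turned its sign, except, among those called only without S8, with S8 as the only PANC-1 control for CCL5 (-0.38), IFNL2 (-1.26), MIR301A (0.0568), KRT8 (-0.37) and PSAT1 (-0.44). Uncalled differences that turned were TXNIP without S8 (-1.31 without S11, 0.21 without S10) and PTCH1 (-0.14 to 0.00338 over 12 arrays and -0.12 to 0.0247 without S8, on leaving out 1 array).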

Other observations

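Several genes of glutathione synthesis and detoxification, which the factor NRF2 is known to drive, fell in SW1990, a group chosen after its values were seen. GCLC, the catalytic subunit of the first enzyme of glutathione synthesis, had 8.11, 8.11 and 8.04 in PANC-1 arrays labelled GLI1 and 8.19, 8.03 and 8.13 in PANC-1 arrays labelled control. In SW1990 it had 8.29, 8.50 and 8.37 in arrays labelled GLI1 and 9.59, 9.59 and 9.53 in arrays labelled control. No array of PANC-1 stood apart, and the difference was 1.15 (standard error 0.09, adjusted p = 0.000147 from limma). CYP4F11, a fatty acid hydroxylase, differed by 1.85 (adjusted p = 0.000714), AKR1C2 and AKR1B10, reductases of carbonyls of which AKR1C2 has near-identical relatives, by 1.43 (adjusted p = 0.0044) and 1.17 (adjusted p = 0.00887), the exporter ABCC2 by 1.36 (adjusted p = 0.0425), TXNRD1, thioredoxin reductase, by 0.70 (adjusted p = 0.0123), and GCLM, the other glutathione subunit, by 0.63 (adjusted p = 0.0222).
Over 23 measured genes usually named as NRF2 targets, 9 were called higher and 0 lower, where 1.48% and 0.91% of all genes were. The median difference was 0.70, with median changes of -0.03 in PANC-1 and -0.74 in SW1990. That PANC-1 median does not mean that members stayed unchanged. The list's median level was 8.29, 8.48 and 8.59 in PANC-1 arrays labelled GLI1. It was 9.04, 8.99 and 9.05 in S10, S11 and S8. GCLM, HMOX1, NQO1 and TXNRD1 were among members called in PANC-1 without S8. With S8 as the only PANC-1 control array the median difference was 0.50. Not all members moved together. HMOX1, heme oxygenase, fell by 1.29 in PANC-1 and fell by 0.69 in SW1990, and its difference of -0.60 did not pass (adjusted p = 0.284). NQO1, a quinone reductase, differed by 0.82 (adjusted p = 0.175) and SLC7A11, the cystine importer, by 0.91 (adjusted p = 0.143). The core TGACNNNGC of the antioxidant response element, on either strand, was in 7 of 18 of their promoters (38.9%) and in 2237 of 15374 of all promoters (14.6%). It was also in 10 of 37 promoters of the interferon-stimulated genes (27.0%) and in 46 of 254 of genes with a positive called difference (18.1%), so nothing is read from it about this group.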
